A study of Mus musculus with 12 samples.

Results

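The comparison described here sets CD8 T cells from mice given a foreign-antigen transfusion under costimulation blockade, the group the labels call tolerized, against cells from untreated mice, the group called naive. Its members were chosen by group label and are 6 of the 12 libraries of the series, 3 tolerized and 3 naive. In every group the cells were CD8 T cells carrying the KB5 transgenic T cell receptor on the CBA/J background, recognising antigens of the H2b haplotype carried by C57BL/6 mice. The tolerized mice received 10000000 C57BL/6 splenocytes intravenously, a donor-specific transfusion, together with 0.5 mg of anti-CD154 antibody intraperitoneally, and spleens were taken 12 hours after treatment. The naive mice received neither the splenocytes nor the antibody. An activated group had the splenocytes without antibody, and it enters here only where the tolerized cells are set beside it. Cells were stained for the KB5 receptor and CD8 and sorted to 95% purity, and the RNA integrity number was over 8.5. Which mice the libraries came from is not stated, although they are labelled as independent, so the p-values speak for the spread among these libraries alone, which may be technical, and cells that all carry 1 transgenic receptor stand for 1 clonotype. The extraction text of the labels names mouse embryonic fibroblasts as the source of RNA, which goes against the labelled cell type.

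A CD8 T cell that meets its antigen receives a signal through the T cell receptor, which switches on NFAT, AP-1, NF-kB and MYC within hours and takes the cell from a small resting state into growth and division. CD154, the CD40 ligand, lets helper T cells license antigen-presenting cells through CD40. An antibody against it is used in transplantation models because T cells that meet donor antigen while the pathway is blocked tend to be deleted or become unresponsive.

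Levels are given as CPM, a gene's read count relative to its library's total, with trimmed-mean scaling between libraries, and differences as log2(CPM + 1) of tolerized minus naive, ± the standard error (SE) of the model, with Benjamini-Hochberg adjusted p-values from limma over all 12499 genes tested of 16353 listed. Where a gene's 6 values are given they run in the order of replicates 1, 2 and 3, and adding 1 CPM understates the change of genes with low levels. A gene was called when its adjusted p was under 0.05. Library totals ran from 31344106 to 84533097 reads in the naive group and from 29335723 to 46145829 reads in the tolerized group. The CD8 identity held in both groups in the sense that the defining genes were abundant: Cd8a was at 1671, 1623 and 1286 CPM in the naive and 959, 873 and 1029.7 CPM in the tolerized libraries, and Cd3e at 423, 359 and 339.9 and 303, 317 and 318 CPM. Of the 7 CD8 T cell markers tested, 6 were nevertheless lower in the tolerized cells, with a median log2 difference of -1.18; Cd8b1, the beta chain of the co-receptor, went from 1197 ± 177 to 417 ± 107 CPM (mean ± SD, n = 3).

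Most of the transcriptome differed. At the adjusted p threshold 9161 genes, 73.3% of those tested, were called, 4673 of them (37.4%) higher and 4488 (35.9%) lower in the tolerized cells. With a change of at least 2-fold added to the rule, 2375 genes (19.0%) were higher and 2339 (18.7%) lower. The 3 tolerized and the 3 naive libraries did not overlap in 9781 genes (78.3%), so a lack of overlap in any gene named below was the usual case. The far ends were unequal: 29 genes were at least 32-fold higher and 2 at least 32-fold lower, and 12 genes were at least 64-fold higher and none as far lower. At the other end, 2455 genes (19.6%) had a 95% interval that kept within 1.5-fold of no change, 478 of them called. The balance of the calls depended on the scaling between libraries: with library totals alone 3736 genes were higher and 5710 lower, with the median gene at -0.25 instead of -0.01, and with upper-quartile scaling 3904 and 5444, with the median gene at -0.19. Where library totals moved the split of a gene list below by more than 10 percentage points of its calls, both splits are given. Each list count is to be read beside the 37.4% higher and 35.9% lower of all tested genes.

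**Figure D1:**
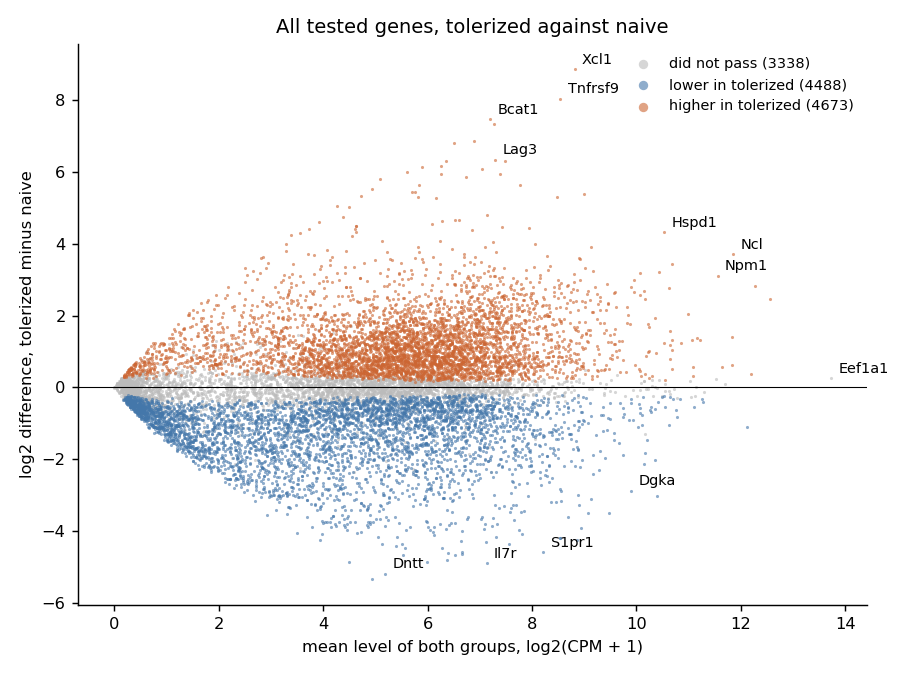
Log2 difference between tolerized and naive cells (vertical axis) against the mean level of both groups on the log2(CPM + 1) scale (horizontal axis), 1 point per tested gene, coloured by whether the gene was higher (4673), lower (4488) or did not pass (3338). The genes with the largest rises, such as Xcl1 and Tnfrsf9, lie farther from 0 than any gene that fell, and the abundant rising genes include Ncl, Npm1 and Hspd1.

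The largest rise belonged to Xcl1, which encodes lymphotactin, a chemokine for cross-presenting dendritic cells. Its level was 0.979, 0.771 and 1.05 CPM in the naive libraries and 1149, 828 and 718 CPM in the tolerized libraries, a 963-fold difference of the group means (log2 difference 8.84 ± 0.24 (SE), adjusted p = 6.52e-09). The gene spans chr1:164931644-164935522 on GRCm38.p6. Tnfrsf9, the costimulatory receptor 4-1BB (chr4:150920155-150946104), stood at 2.17, 1.76 and 1.55 CPM in the naive libraries and 849.6, 820.1 and 559 CPM in the tolerized libraries (log2 difference 8.02 ± 0.19 (SE), adjusted p = 4.68e-09). The ranking left out genes whose groups overlapped, so in both genes only the width of the gap between the groups is a result. Bcat1, the cytosolic branched-chain amino acid transaminase, went from 0.892, 0.510 and 0.551 to 362, 286 and 227 CPM (log2 difference 7.45 ± 0.22 (SE), adjusted p = 7.76e-09). The remaining 9 of the 12 largest rises were Ccl4 (7.32), Ccl3 (6.85), Rgs16 (6.80), Lag3 (6.33), Chst2 (6.29), Sema7a (6.28), Zbtb32 (6.15), Spry1 (6.12) and Il2ra (6.08), all on the log2 scale.

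The largest fall was that of AI646023, a gene listed with no type in the deposited table (chr10:75550119-75560680). It was at 68.2, 65.7 and 43.1 CPM in the naive libraries and 0, 0.246 and 1.51 CPM in the tolerized libraries (log2 difference -5.33 ± 1.01 (SE), adjusted p = 0.000758). Dntt came next. This gene, at chr19:41029275-41059525, encodes terminal transferase, which adds bases at receptor junctions in developing lymphocytes. It was measured at 76.7, 68.8 and 63.9 CPM in the naive libraries and 0.760, 1.27 and 0.873 CPM in the tolerized libraries (log2 difference -5.17 ± 0.75 (SE), adjusted p = 0.000117). Il7r, the interleukin-7 receptor that resting T cells need to survive (chr15:9506159-9529941), was at 287, 273 and 246 CPM in the naive libraries and 4.48, 5.07 and 21.8 CPM in the tolerized libraries (log2 difference -4.88 ± 0.94 (SE), adjusted p = 0.000835). Tolerized replicate 3 kept more Il7r than replicates 1 and 2 and was still below every naive library; without it the difference was -5.54. Itgae, the CD103 integrin chain, fell in all 3 tolerized libraries to 4.48, 4.58 and 5.33 CPM from 184, 145 and 147 CPM (log2 difference -4.78 ± 0.58 (SE), adjusted p = 3.44e-05). S1pr1, the receptor through which lymphocytes leave the spleen and lymph nodes, was at 606, 602 and 465 CPM in the naive libraries and 5.70, 21 and 83 CPM in the tolerized libraries (log2 difference -4.58 ± 1.26 (SE), adjusted p = 0.00689). Its tolerized values spread over more than 10-fold, again with replicate 3 the highest, and the difference was -5.51 without that library. Other large falls were Ggt5 (-4.85), Slc16a5 (-4.84), Cpne4 (-4.66), Pik3ip1 (-4.62), Socs3 (-4.60) and Slc6a19 (-4.58). Mrc1, the mannose receptor of macrophages, fell (-4.47), and in bulk RNA fewer cells of a type and less RNA per cell cannot be told apart.

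**Figure D2:**
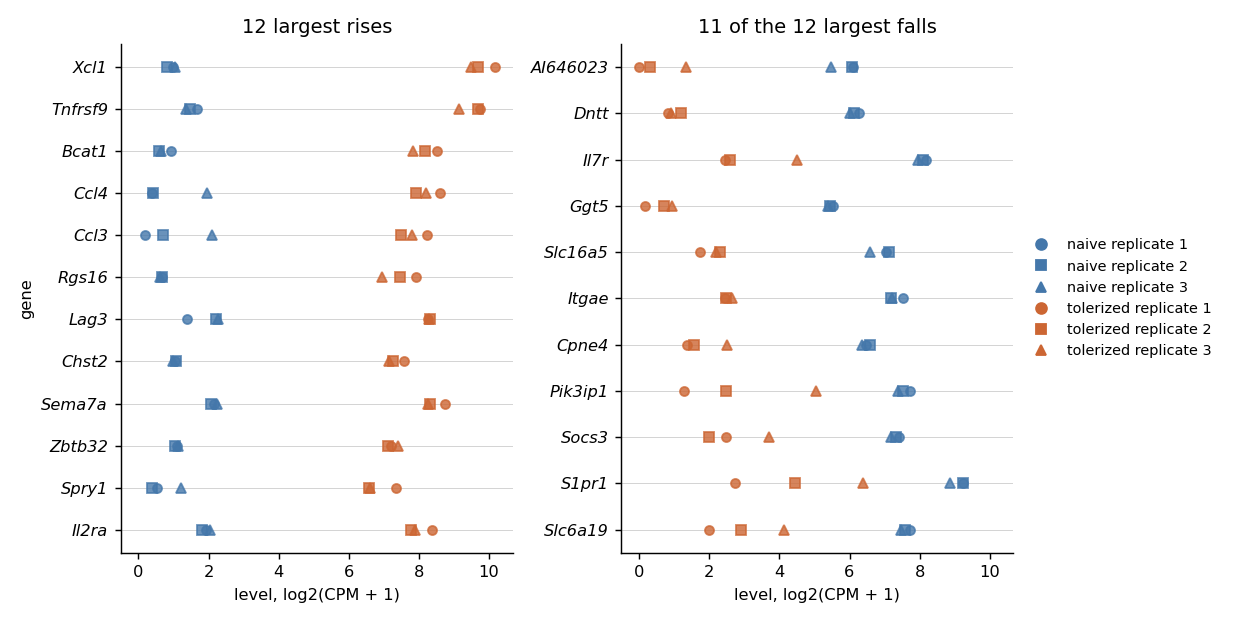
Level on the log2(CPM + 1) scale (horizontal axis) of the 12 genes with the largest rises and 11 of the 12 with the largest falls, 1 symbol per library and 1 row per gene. The rule that chose these genes left out any with overlap, so in every row the 3 tolerized libraries lie on 1 side of the 3 naive libraries. The tolerized libraries spread most in the rows of genes that fell, such as S1pr1 and Il7r.

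Between absence and presence, 17 genes were under 1 CPM in every naive library and at 10 CPM or more in every tolerized library, a limit set after the values were seen. They include Bcat1, Rgs16, the cytotoxic genes Gzmb and Fasl, the neuronal activity factor Npas4, the cytokine Lif, the retinoic acid carrier Crabp2, the lysophospholipid transporter Mfsd2a and the signalling protein Wnt10b. Crabp2 went from 0.152, 0.0521 and 0.289 to 96.5, 53.7 and 47.5 CPM, and Npas4 from 0.348, 0.240 and 0.157 to 65.1, 48.5 and 37.7 CPM. The reverse pattern held for 7 genes: Ggt5, Pdlim4, Cyp2s1, Abhd15, Kcnh3, Dnajc6 and Kcnj16. Ggt5, a gamma-glutamyl transferase that acts on leukotriene C4 and other glutathione conjugates, had 45.1, 42.6 and 40.8 CPM in the naive and 0.114, 0.647 and 0.902 CPM in the tolerized libraries.

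The receptor complex and its first signalling steps changed less than its targets, and mostly downward. Of 28 tested members, 15 fell and 8 rose (19 and 5 with library totals alone), with a median of -0.38, beside -0.01 over all tested genes. Themis, which tunes receptor signal strength, fell (-2.0), the phospholipase Plcg1 (-1.94), and the CD3 chains Cd3g and Cd3d (-1.18 and -1.17). Zap70, the kinase that binds the phosphorylated receptor, rose (1.48), as did the adaptor Sh2d2a (2.30) and the costimulatory receptor Cd28 (1.14).

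Nuclear factors that the receptor induces were more often higher, 19 of 34 against 5 lower, with a median of 1.46. The orphan receptors of the NR4A family, early targets of receptor signalling, led the list. Nr4a1 was at 10.3, 11.9 and 79.7 CPM in the naive libraries and 1191, 1116 and 649.7 CPM in the tolerized libraries (log2 difference 5.39 ± 0.61 (SE), adjusted p = 1.88e-05), and without naive replicate 3, the highest of the naive libraries, the difference was 6.30. Nr4a3 was at 2.07, 2.38 and 3.15 CPM in the naive libraries and 263, 214 and 147 CPM in the tolerized libraries (log2 difference 5.86 ± 0.24 (SE), adjusted p = 4.9e-08). The same separation was seen in Irf4, which scales with receptor signal strength, at 10.4, 12.2 and 34.9 CPM in the naive libraries and 825, 630.1 and 611 CPM in the tolerized libraries (log2 difference 5.28 ± 0.36 (SE), adjusted p = 4.85e-07). Egr2 and Egr3, transcription factors tied to T cell unresponsiveness, rose by 2.88 and 2.19 on the log2 scale, and the AP-1 members Fosl1 and Fosl2 by 4.50 and 2.87.

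The AP-1 genes Jun and Fos, which also respond to the handling of tissue, were unsteady among the naive libraries. Jun was at 9.74, 203 and 944 CPM in the naive libraries and 18.7, 8.64 and 11.1 CPM in the tolerized, and Fos at 4.13, 64.3 and 549 and 16.7, 17.1 and 11.4 CPM. Naive replicate 3 was the highest in both genes and naive replicate 1 lay within the tolerized range of Jun and below that of Fos. Jun passed the test (log2 difference -3.27 ± 1.24 (SE), adjusted p = 0.0333) but its call was lost without naive replicate 3 (-1.82, adjusted p = 0.138) and likewise without naive replicate 2 or without any 1 of the tolerized libraries; Fos did not pass (-1.84, adjusted p = 0.192). Over the 19 tested genes of dissociation and handling stress, 9 fell and 1 rose, and their summed level was 1150, 1780 and 6410 CPM in the naive and 1030, 902 and 767 CPM in the tolerized libraries. The part of handling in these differences was not tested.

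Costimulatory receptors and ligands rose in 13 of 24 cases and fell in 5 (12 and 8 with library totals alone). Il2ra, the alpha chain that makes the interleukin-2 receptor high in affinity, was at 2.81, 2.49 and 3.12 CPM in the naive libraries and 327, 217 and 236 CPM in the tolerized libraries (log2 difference 6.08 ± 0.23 (SE), adjusted p = 3.62e-08). Tnfsf14, the ligand LIGHT, was at 1.39, 1.71 and 1.13 CPM in the naive libraries and 203, 134 and 113 CPM in the tolerized libraries (log2 difference 5.93 ± 0.28 (SE), adjusted p = 8.37e-08), while its receptor Tnfrsf14 fell from 79.2 ± 20.5 to 17.5 ± 8.62 CPM. Crtam, an adhesion receptor of activated CD8 T cells, was at 20.4, 22 and 18.9 CPM in the naive libraries and 502, 552 and 347 CPM in the tolerized libraries (log2 difference 4.42 ± 0.18 (SE), adjusted p = 4.9e-08). None of these genes overlapped between the groups, which was also so for 78.3% of all tested genes. Icos (0.31, adjusted p = 0.238), the OX40 gene Tnfrsf4 (-0.18, adjusted p = 0.24) and Cd44 (-0.03, adjusted p = 0.949) did not pass the test.

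Co-inhibitory receptors split. Of 19 tested, 9 rose and 6 fell (7 and 7 with library totals alone), beside 37.4% higher and 35.9% lower of all tested genes. Lag3, which binds MHC class II, was at 1.61, 3.65 and 3.80 CPM in the naive libraries and 304, 315 and 312 CPM in the tolerized libraries (log2 difference 6.33 ± 0.22 (SE), adjusted p = 1.75e-08), and Pdcd1, which encodes PD-1, at 1.87, 1.17 and 1.08 CPM in the naive libraries and 124, 94.3 and 83.8 CPM in the tolerized libraries (log2 difference 5.42 ± 0.24 (SE), adjusted p = 6.37e-08). Both receptors were under 4 CPM in every naive library, and Lag3 was nearly even across the tolerized libraries. The PD-1 ligands rose too, Cd274 by 1.54 and Pdcd1lg2 by 4.31, as did Cd160 (3.29) and Tigit (2.70). The receptors that fell were Entpd1 (-2.73), Cd244 (-2.47), Lair1 (-1.79), Cd96 (-1.48), Ceacam1 (-1.09) and Cd101 (-1.07). Ctla4 was at 0.783, 1.04 and 3.44 CPM in the naive libraries and 1.60, 6.56 and 30.04 CPM in the tolerized libraries, with overlap between the groups; it passed (log2 difference 1.75 ± 0.71 (SE), adjusted p = 0.0438) but not without tolerized replicate 3 (0.81, adjusted p = 0.152), nor without any of naive replicates 1 and 2 and tolerized replicate 2. Havcr2, the TIM-3 gene, did not pass (0.67, adjusted p = 0.252).

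Of the 29 genes linked to anergy and deletion, 15 were higher and 6 lower, with a median of 0.38. With library totals alone there were 12 and 8, with a median of 0.07. Cblb, a ubiquitin ligase that limits receptor signalling, rose from 106 ± 3.63 to 308 ± 27.8 CPM (log2 difference 1.53 ± 0.09 (SE), adjusted p = 1.7e-07). The diacylglycerol kinases, which dampen the same signal, moved apart: Dgka was at 1709.5, 1636 and 1596 CPM in the naive libraries and 122, 199 and 463 CPM in the tolerized libraries (log2 difference -2.87 ± 0.63 (SE), adjusted p = 0.00198), whereas Dgkz rose by 0.38. Adora2a, the adenosine receptor, rose by 2.85, and Bcl2l11, which encodes the death protein BIM, by 0.83. The ubiquitin ligases Itch (-0.22, adjusted p = 0.0674) and Rc3h1 (0.07, adjusted p = 0.559) did not pass.

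Feedback inhibitors of MAP kinase and G-protein signalling showed some of the widest changes. Of 22 members 10 rose and 5 fell, a lean that was not there with library totals alone or upper-quartile scaling (9 and 9 in each). Spry1, an inhibitor of the Ras pathway, was at 0.457, 0.312 and 1.31 CPM in the naive libraries and 160.1, 94.5 and 95.6 CPM in the tolerized libraries (log2 difference 6.12 ± 0.33 (SE), adjusted p = 1.53e-07), and Rgs16, a regulator of chemokine receptor signals, at 0.587, 0.583 and 0.525 CPM in the naive libraries and 239, 175 and 123 CPM in the tolerized libraries. The nuclear phosphatases Dusp4 and Dusp5 rose by 3.69 and 3.47, while Dusp10 fell (-2.02). Dusp1, also a handling-stress gene, fell (-3.86, and -2.47 without naive replicate 3).

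Secreted products were few and large. Of 19 cytokine genes tested, 6 rose (Ifng, Lif, Lta, Mif, Tnf and Il2) and 6 fell. Ifng, the interferon-gamma gene, was at 0.196, 0.177 and 1.36 CPM in the naive libraries and 106, 82.1 and 95.5 CPM in the tolerized libraries (log2 difference 5.99 ± 0.30 (SE), adjusted p = 1.03e-07). Tnf was at 10.2, 16.5 and 39.3 CPM in the naive libraries and 249, 136 and 89.8 CPM in the tolerized libraries (log2 difference 2.88 ± 0.51 (SE), adjusted p = 0.000476). Il2, the T cell growth factor, stayed low in absolute terms at 0.0217, 0.0417 and 0.0262 CPM in the naive libraries and 5.28, 2.79 and 3.0 CPM in the tolerized libraries (log2 difference 2.15 ± 0.37 (SE), adjusted p = 0.000385). All 3 were higher in every tolerized library than in any naive library. Ltb and Il16, made by resting lymphocytes, fell (-1.71 and -2.65). Of the 14 chemokines tested 3 rose: Xcl1, Ccl3 (0.131, 0.635 and 3.25 against 299.8, 179.8 and 221 CPM) and Ccl4 (0.304, 0.333 and 2.89 against 388, 242 and 293 CPM). Ccl5, a chemokine of effector and memory cells, did not pass (-0.37, adjusted p = 0.739). Csf2 is not among the genes tested.

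Among 21 cytotoxic genes, 10 were higher and 5 lower, beside 37.4% higher and 35.9% lower of all tested genes. Gzmb, the granzyme B gene, was at 0.174, 0.687 and 0.525 CPM in the naive libraries and 35.4, 37.9 and 261 CPM in the tolerized libraries (log2 difference 5.63 ± 0.61 (SE), adjusted p = 1.29e-05). Tolerized replicate 3 was several times above the other 2 tolerized libraries, and the difference without it was 4.70. Fasl, the ligand of the death receptor FAS, was at 0.196, 0.271 and 0.394 CPM in the naive libraries and 76.4, 55.3 and 45.9 CPM in the tolerized libraries (log2 difference 5.52 ± 0.30 (SE), adjusted p = 1.48e-07). Prf1, the pore-forming perforin, rose by 1.41, and the granzyme inhibitors Serpinb9 and Serpinb6b by 2.18 and 3.91. Klrd1, the CD94 chain of NK receptors, fell from 49.5, 45.1 and 42.4 to 1.86, 5.56 and 22.2 CPM, again with replicate 3 the highest of the tolerized libraries. Gzma did not pass (-0.75, adjusted p = 0.382).

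Transcription factors of effector and memory fate were 10 higher and 11 lower of 29 (7 and 13 with library totals alone), near the 37.4% and 35.9% of all tested genes, with a median of 0.16 that became -0.15 with those totals. Eomes, a T-box factor of effector and memory CD8 T cells, was at 3.72, 4.31 and 4.46 CPM in the naive libraries and 279.8, 472 and 232 CPM in the tolerized libraries (log2 difference 5.93 ± 0.22 (SE), adjusted p = 3.55e-08). Its relative Tbx21, which encodes T-bet, was at 1.02, 1.54 and 1.02 CPM in the naive libraries and 7.14, 6.65 and 30.7 CPM in the tolerized libraries (log2 difference 2.52 ± 0.45 (SE), adjusted p = 0.000501), and the difference was 1.86 without tolerized replicate 3, where it was highest. Prdm1, the BLIMP-1 gene of terminal effectors, was lower, at 4.59, 6.71 and 8.19 CPM in the naive and 0.380, 0.759 and 3.46 CPM in the tolerized libraries. The paired inhibitors Id2 and Id3 moved in opposite directions, at -1.87 and 0.99. Myb rose by 2.62, and Gata3, Runx1 and Bcl11b fell (-1.81, -2.22 and -1.56). Foxp3, the regulatory T cell factor, was at 37, 48.4 and 36.6 CPM in the naive libraries and 49.9, 34.9 and 37.8 CPM in the tolerized libraries and did not pass (0.00, adjusted p = 0.988).

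The programme of the resting naive cell fell. Of 38 tested members 32 were lower and 3 higher, with a median of -1.86, against 35.9% of all tested genes lower. Klf2, the factor that maintains quiescence and drives S1pr1, was at 229.8, 253 and 342 CPM in the naive libraries and 7.33, 14.1 and 51.4 CPM in the tolerized libraries (log2 difference -3.86 ± 0.82 (SE), adjusted p = 0.00159). Txnip, which restrains glucose uptake, was at 849, 975 and 898 CPM in the naive libraries and 36.1, 43.4 and 133 CPM in the tolerized libraries (log2 difference -3.91 ± 0.65 (SE), adjusted p = 0.000327). Cdkn1b, the p27 inhibitor of cyclin-dependent kinases, was at 156, 143 and 132 CPM in the naive libraries and 10.8, 17.9 and 43.2 CPM in the tolerized libraries (log2 difference -2.75 ± 0.54 (SE), adjusted p = 0.000913). In all 3 genes the naive libraries were close together and the tolerized libraries below them, with tolerized replicate 3 nearest to the naive level; Klf2 reached -4.60 without it. The factors Foxo1, Lef1 and Tcf7 fell (-1.72, -1.89 and -0.70), and the lymph node receptor Ccr7 (-0.85). The members that rose were Foxp1 (0.87), Slfn2 (0.74) and Bach2 (0.64), each known as a keeper of quiescence. The members' summed level was 13000, 12900 and 11800 CPM in the naive and 3960, 3890 and 5720 CPM in the tolerized libraries.

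Homing receptors followed, with 22 of 33 lower and 4 higher. Itgb7, the partner of Itgae and of the gut-homing integrin, was at 748, 774 and 663 CPM in the naive libraries and 21.4, 45.6 and 211 CPM in the tolerized libraries (log2 difference -3.59 ± 0.93 (SE), adjusted p = 0.00518). Ccr9, the gut chemokine receptor, was at 387, 376 and 291 CPM in the naive libraries and 28.3, 40.9 and 32.4 CPM in the tolerized libraries (log2 difference -3.34 ± 0.41 (SE), adjusted p = 3.65e-05). Both sets of values were apart in every library. Selplg, the P-selectin ligand, fell (-2.81), Cxcr4 (-2.97) and Itga4 (-1.91). Cxcr3, the receptor for interferon-induced chemokines, rose from 1.54, 1.80 and 1.71 to 5.66, 4.78 and 49.95 CPM (log2 difference 2.22 ± 0.64 (SE), adjusted p = 0.00883); tolerized replicate 3 carried most of that rise, and the difference was 1.21 without it.

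Cytokine receptors fell in 21 of 32 cases and rose in 4. The 4 that rose were the interleukin-2 and interleukin-15 chains Il2ra, Il2rb (1.83) and Il15ra (1.74) and the interleukin-12 chain Il12rb1 (1.48). Those that fell include Il7r, Il6ra (-2.82), Il18r1 (-3.0), Tgfbr2 (-1.77) and both chains of each interferon receptor: Ifngr2 (-3.40), Ifngr1 (-1.17), Ifnar1 (-1.47) and Ifnar2 (-0.89). Ifngr2, the chain that limits the interferon-gamma response of T cells, was at 37.6, 38.9 and 37.4 CPM in the naive libraries and 2.74, 2.88 and 2.50 CPM in the tolerized libraries. Of the suppressors of cytokine signalling, Socs3 was at 171, 161 and 145 CPM in the naive libraries and 4.52, 2.95 and 12 CPM in the tolerized libraries (log2 difference -4.60 ± 0.60 (SE), adjusted p = 5.73e-05), while Cish, an interleukin-2 target, rose by 2.69. 

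Genes stimulated by type I interferon fell without exception among those called: 33 of 42 were lower, none was higher and 9 did not pass, with a median of -1.69. Across the fits that left out 1 library the lower count ran from 29 to 38, and 1 gene was higher without naive replicate 1. Many of these genes share the interferon-stimulated response element in their promoters: GAAA, any 2 bases, GAAA. Searched on both strands in the 250 bases before and 50 bases after the start of transcription, as RefSeq gives it on GRCm38.p6, this motif was in 17 of 31 promoters of the list (54.8%), in 3.9% of those of tested genes, in 4.0% of all RefSeq promoters, in 7.8% of those of genes at least 4-fold lower and in 2.0% of those of genes at least 4-fold higher. A match is a description of letters in a window, not a binding site or a cause. The stretches below, from genes of the list that fell, show each match in capitals as it reads 5′ to 3′ along the gene's strand, forward or as its reverse complement; they come from chr11:82951917-82951986, plus strand; chr19:34583377-34583446, plus strand; chr19:34640774-34640843, plus strand; and chr12:26456533-26456602, minus strand, all upstream of the start.
Slfn5: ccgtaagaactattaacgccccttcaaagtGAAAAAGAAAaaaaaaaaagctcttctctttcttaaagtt
Ifit3: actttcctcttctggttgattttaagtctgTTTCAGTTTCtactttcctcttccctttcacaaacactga
Ifit1: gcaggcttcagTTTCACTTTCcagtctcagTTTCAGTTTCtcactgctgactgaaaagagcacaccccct
Rsad2: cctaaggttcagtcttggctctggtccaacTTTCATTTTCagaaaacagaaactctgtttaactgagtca

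Slfn5 was at 174, 169 and 116 CPM in the naive libraries and 7.41, 11.2 and 51.1 CPM in the tolerized libraries (log2 difference -3.12 ± 0.67 (SE), adjusted p = 0.0016). Ifit3 was at 22.9, 26.6 and 15.3 CPM in the naive libraries and 1.22, 0.870 and 9.32 CPM in the tolerized libraries (log2 difference -2.66 ± 0.55 (SE), adjusted p = 0.00135), and Ifit1 and Rsad2 fell (-2.32 and -2.32). In Slfn5 and Ifit3 tolerized replicate 3 kept the most RNA, and without it the differences were -3.91 and -3.44. Irf7, the factor that amplifies the response, was at 74.2, 84.7 and 67.5 CPM in the naive libraries and 3.61, 5.78 and 30.7 CPM in the tolerized libraries (log2 difference -2.93 ± 0.60 (SE), adjusted p = 0.00126). The groups did not overlap in Slfn5, Ifit3 or Irf7. Isg15 (0.43, adjusted p = 0.0866) and Bst2 (0.23, adjusted p = 0.299), also interferon-stimulated, did not pass. The 11 tested members of the Gbp family of interferon-gamma-induced GTPases all fell, with a median of -2.66.

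Genes of antigen presentation were mostly lower, 26 of the 32 tested against 5 higher (median -1.58). For class I, B2m, the common light chain, was at 2132, 2314 and 1942 CPM in the naive libraries and 918, 971 and 1216 CPM in the tolerized libraries (log2 difference -1.05 ± 0.16 (SE), adjusted p = 0.000149), and the activator Nlrc5 at 529.7, 551 and 479.5 CPM in the naive libraries and 96.2, 144 and 222 CPM in the tolerized libraries (log2 difference -1.83 ± 0.36 (SE), adjusted p = 0.000986). The peptide transporter Tap1 fell (-1.74) and the immunoproteasome subunit Psmb9 (-1.81). The general endoplasmic reticulum chaperones on the list, Canx, Calr and Pdia3, rose by 1.91, 1.46 and 1.30. For class II, made mainly by B cells and other presenting cells, Cd74 was at 524, 834 and 858 CPM in the naive libraries and 126, 160.4 and 193 CPM in the tolerized libraries (log2 difference -2.19 ± 0.42 (SE), adjusted p = 0.000779). Markers of B cells fell with it, 13 of 13, and their summed level was 499, 584 and 643 CPM in the naive and 118, 189 and 242 CPM in the tolerized libraries; their part in the class II difference was not tested.

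Markers of several other cell types were also lower in the tolerized libraries. All 14 tested markers of splenic red pulp macrophages were lower (median -3.77), with a summed level of 1030, 2580 and 2610 CPM in the naive against 176, 144 and 58.7 CPM in the tolerized libraries. The 10 erythroid markers were all lower too, at 1140, 1010 and 2430 against 58.7, 159 and 52.9 CPM. Of the markers of dendritic cells 7 of 10 fell, of monocytes 3 of 10, of neutrophils 3 of 8, and none rose. The dendritic cell falls include Ccr9, counted above among the homing receptors. Ccr9 made up most of that list's summed level in the naive libraries (443, 454 and 360 CPM). Batf3, another of these falls, lost its call without naive replicate 2 or 3 or tolerized replicate 1 or 2. The monocyte and neutrophil counts of falls were near the 35.9% of all tested genes that were lower. Of 5 NK cell markers 1 rose, Eomes, and 4 fell. Markers of CD4 and regulatory T cells did not move one way, with 2 of 7 higher and 3 lower (1 and 3 with library totals alone) and a summed level of 68.5, 89.3 and 82.6 CPM in the naive and 69.6, 67.8 and 124 CPM in the tolerized libraries; Cd4 itself was at 13.7, 21.1 and 24 CPM in the naive libraries and 4.63, 3.68 and 5.44 CPM in the tolerized libraries. Of the gamma delta and MAIT cell markers 1 of 5 rose and 2 fell. Of the lysosomal and autophagy genes 22 of 36 were lower and 7 higher. Their summed level was 3440, 4110 and 3830 CPM in the naive and 1900, 1950 and 2360 CPM in the tolerized libraries, highest among the tolerized in replicate 3, where the macrophage markers were lowest. The protease Ctsb was at 309.9, 634 and 631 CPM in the naive libraries and 92.5, 113 and 130.3 CPM in the tolerized libraries, low in naive replicate 1 as the macrophage markers were, and the cholesterol carrier Npc2 at 539, 547 and 480.3 CPM in the naive libraries and 88, 103 and 167 CPM in the tolerized libraries, even across the naive libraries. The part of other cells in these falls was not tested.

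**Figure D3:**
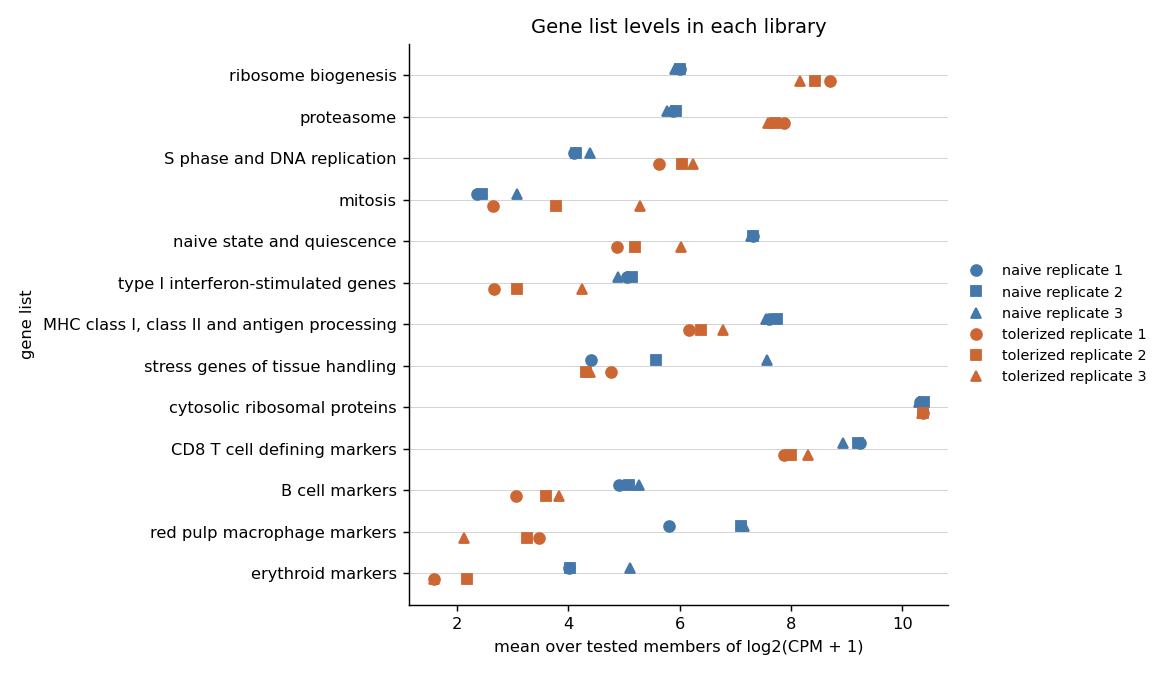
Mean of log2(CPM + 1) over the tested members of selected gene lists (horizontal axis), 1 symbol per library, for functional lists and for markers of CD8 T cells and other cell types. Ribosome biogenesis and proteasome genes separate the groups with little spread, mitosis genes overlap between them with tolerized replicate 3 highest, and the stress genes spread most among the naive libraries.

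Growth machinery rose almost as whole sets, beginning with MYC. Myc, the driver of biomass genes in activated T cells, was at 61.9, 67.9 and 96.7 CPM in the naive libraries and 1092, 876 and 722 CPM in the tolerized libraries (log2 difference 3.56 ± 0.25 (SE), adjusted p = 6.23e-07). Within its network of partners and antagonists, 4 of 12 rose and 5 fell, near the 37.4% and 35.9% of all tested genes. The partner Max rose by 0.62, the target and co-regulator Tfap4 by 1.45, and the antagonist Mxi1 fell (-2.02). MYC and MAX bind the E-box CACGTG, which reads the same on both strands. The motif was in 17.6% of the promoter windows of genes at least 4-fold higher (99 of 561), in 8.8% of those at least 4-fold lower (52 of 588), in 10.5% of those not called, in 11.8% of those of all tested genes and in 8.1% of all RefSeq promoters. Among ribosome biogenesis genes it was in 8 of 42 (19.0%). Such stretches, with the E-box in capitals, are given for the rRNA methyltransferase gene Nop2 (chr6:125131793-125131858, plus strand), the pre-rRNA processing gene Imp4 (chr1:34439678-34439743, plus strand) and Rrn3, the factor that starts RNA polymerase I (chr16:13780621-13780686, plus strand).
Nop2: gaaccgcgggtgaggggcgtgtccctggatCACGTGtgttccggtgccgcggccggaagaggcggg
Imp4: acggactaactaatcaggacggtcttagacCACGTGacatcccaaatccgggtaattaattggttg
Rrn3: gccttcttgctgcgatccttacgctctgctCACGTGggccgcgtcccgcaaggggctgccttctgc

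All 48 tested ribosome biogenesis genes were at least 2-fold higher, with a median of 2.53, and their summed level was 4420, 4510 and 4250 CPM in the naive and 38600, 29500 and 24500 CPM in the tolerized libraries. Ncl, the nucleolar protein nucleolin, was at 509, 517 and 513 CPM in the naive libraries and 9164, 6209 and 5268 CPM in the tolerized libraries (log2 difference 3.70 ± 0.25 (SE), adjusted p = 4.38e-07). Npm1, nucleophosmin, was at 598, 653 and 594 CPM in the naive libraries and 6898, 5091 and 4235 CPM in the tolerized libraries (log2 difference 3.11 ± 0.21 (SE), adjusted p = 5.33e-07). Nop2 was at 46.7, 46.7 and 44.3 CPM in the naive libraries and 583, 476 and 382 CPM in the tolerized libraries (log2 difference 3.34 ± 0.17 (SE), adjusted p = 1.28e-07), and Imp4 and Rrn3 rose by 2.0 and 1.53. In Ncl, Npm1 and Nop2 the naive libraries differed little from each other and tolerized replicate 3 was the lowest of the tolerized libraries, yet above every naive one. The proteins of the finished cytosolic ribosome did not follow: of 52 tested, 16 rose, 16 fell and the median was 0.00, which became -0.31, with 6 higher and 30 lower, with library totals alone. The extremes were Rps2 (1.32) and Rps29 (-0.89); pseudogene copies of this family can take or lend reads.

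Translation, folding and degradation rose beside it. Of 39 translation factors 35 rose; Eif4e, which binds the mRNA cap, was at 56.9, 57.4 and 43 CPM in the naive libraries and 467, 382 and 319 CPM in the tolerized libraries (log2 difference 2.86 ± 0.18 (SE), adjusted p = 3.64e-07), and Eef2k, the kinase that slows elongation, fell (-1.33). All 22 aminoacyl-tRNA synthetase genes rose (median 1.85), and so did all 32 proteasome genes (median 1.93), among them Psme3 (2.85), while the immunoproteasome genes above fell. Of 28 chaperone genes on the list 25 rose and none fell, while of 40 tested genes beginning Dnaj 20 rose and 6 fell. Hspd1, the mitochondrial chaperonin, was at 125, 144 and 145 CPM in the naive libraries and 3594, 2643 and 2225 CPM in the tolerized libraries (log2 difference 4.32 ± 0.21 (SE), adjusted p = 8.37e-08), and Hsp90aa1 at 225, 246 and 356 CPM in the naive libraries and 3778, 2671 and 2530.4 CPM in the tolerized libraries (log2 difference 3.44 ± 0.24 (SE), adjusted p = 5.6e-07). The 3 listed chaperone genes that did not pass were Hspa1a (-2.36, adjusted p = 0.0734), Hspa1b (-2.34, adjusted p = 0.0877) and Dnajb1 (0.12, adjusted p = 0.729). They are known to respond to heat shock, as are Hsp90aa1 and Hspd1. In the unfolded protein response 20 of 30 genes rose and 5 fell (18 and 9 with library totals alone): the folding enzymes Hspa5 (1.78) and Hyou1 (1.90) were higher, and the stress kinase Eif2ak3 (-1.52) was lower. 

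**Figure D4:**
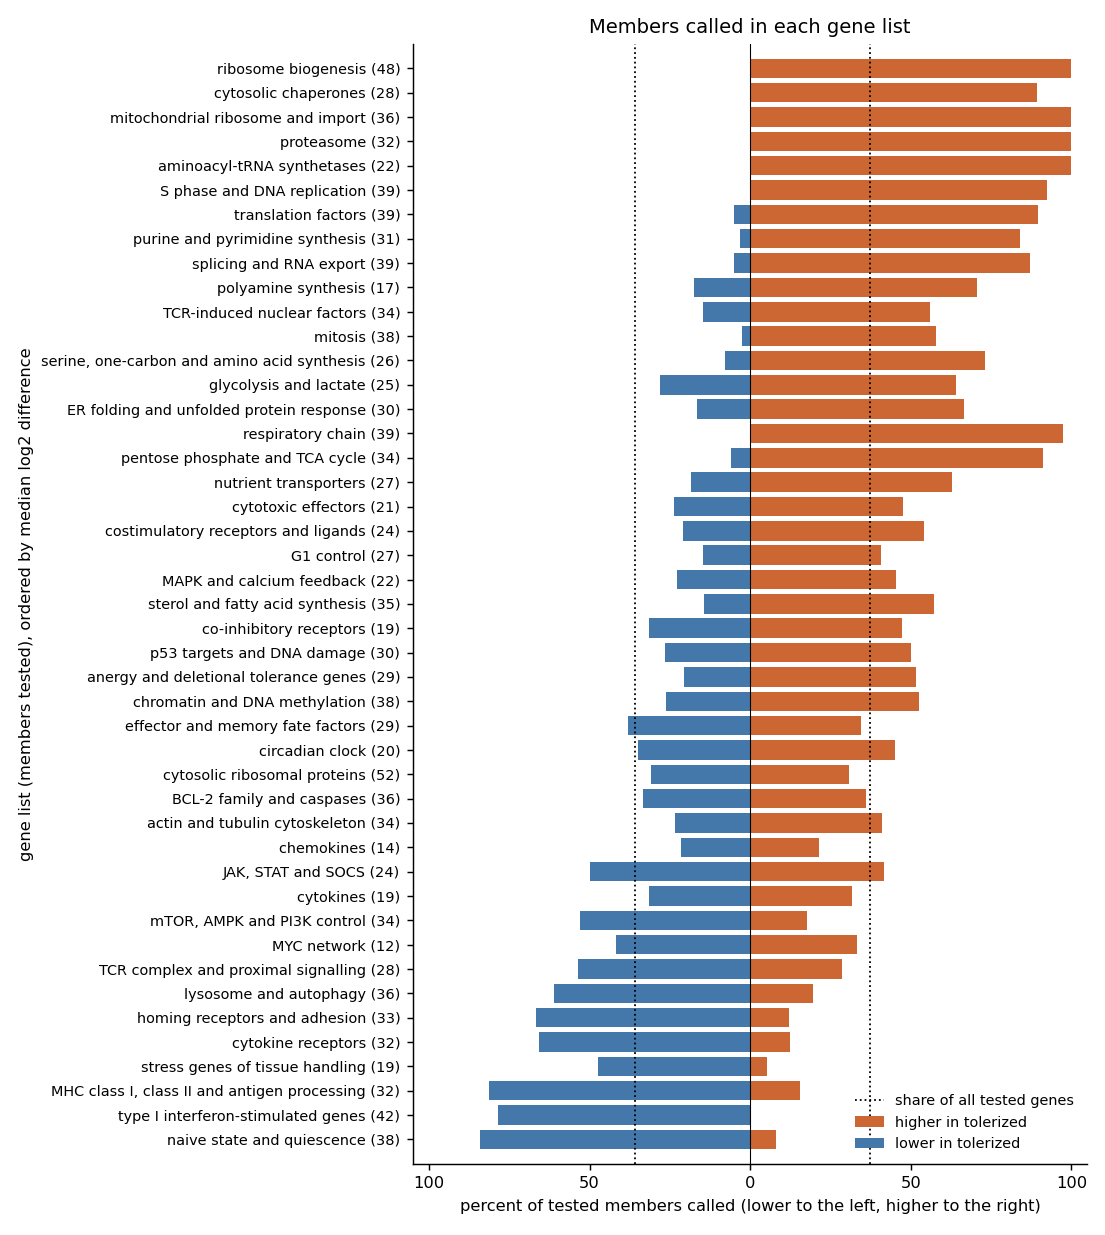
Percent of the tested members of each of 45 gene lists that were higher (right) or lower (left) in tolerized cells, with the number of members tested in parentheses; dotted lines mark the share of all tested genes, 37.4% higher and 35.9% lower. Ribosome biogenesis, mitochondrial ribosome, proteasome and synthetase genes reach 100% on the right, and the naive, interferon and MHC lists extend farthest to the left.

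Mitochondrial genes rose in both of their systems. All 36 tested genes of the mitochondrial ribosome, import and transcription were higher (median 2.11). Of the 39 respiratory chain genes on the list 38 were higher (median 1.02), with none lower. Over the symbol families, 47 of 47 genes beginning Mrpl and 28 of 29 beginning Mrps rose, with 1 Mrps gene lower. Among respiratory chain families, 17 of 20 Cox genes rose and 2 fell, and 15 of 17 Atp5 genes rose and 2 fell. For Ndufa, Ndufb and Ndufs, 14 of 18, 7 of 10 and 7 of 7 were higher, with 1, 1 and 0 lower. Mrpl12 rose by 2.82, the import chaperone Timm10 by 2.49, cytochrome c (Cycs) by 2.60, and Tfam, which packages mitochondrial DNA, by 0.96. In the TCA and pentose phosphate pathways 31 of 34 genes rose, and the isocitrate dehydrogenases Idh1 and Idh2, which use NADP, fell (-2.47 and -1.07), while the NAD-linked Idh3a rose by 2.02. 

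Sugar use changed isoform by isoform. Of 25 glycolytic genes 16 rose and 7 fell. Hk2, the inducible hexokinase, was at 2.78, 4.78 and 8.32 CPM in the naive libraries and 186, 142 and 117 CPM in the tolerized libraries (log2 difference 4.64 ± 0.30 (SE), adjusted p = 3.98e-07), while Hk1 fell (-1.09). Ldha, which makes lactate, was at 337, 333 and 260.1 CPM in the naive libraries and 2021, 2066 and 1804 CPM in the tolerized libraries (log2 difference 2.67 ± 0.14 (SE), adjusted p = 1.13e-07), while Ldhb fell (-0.87). The lactate exporter Slc16a1 rose by 3.06 and the glucose transporter Slc2a1 by 0.79, while Slc2a3 fell (-0.47). Pdk1, a kinase that keeps pyruvate out of the mitochondrion, was at 433, 409.5 and 362 CPM in the naive libraries and 81.8, 86.7 and 95.9 CPM in the tolerized libraries (log2 difference -2.17 ± 0.25 (SE), adjusted p = 2.45e-05), and Pdk2 fell (-1.29).

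Building-block pathways rose in most of their genes: 26 of 31 for nucleotides, 19 of 26 for serine, one-carbon units and amino acids, and 12 of 17 for polyamines, with 3 lower (10 and 5 with library totals alone). Shmt1, the cytosolic enzyme that takes a one-carbon unit from serine, was at 9.98, 10.1 and 8.45 CPM in the naive libraries and 249, 219 and 188 CPM in the tolerized libraries (log2 difference 4.38 ± 0.18 (SE), adjusted p = 4.17e-08). Odc1, the entry enzyme of polyamine synthesis, was at 56, 55 and 103 CPM in the naive libraries and 1207, 1082 and 835 CPM in the tolerized libraries (log2 difference 3.90 ± 0.25 (SE), adjusted p = 3.98e-07), and the next enzyme, Srm, rose by 4.0, while the breakdown enzymes Smox and Sat1 fell (-1.44 and -0.59). Ctps and Umps of pyrimidine synthesis rose by 3.07 and 3.08. Asns and Psat1, which make asparagine and serine, rose by 3.18 and 2.97, and the amino acid transporter Slc7a5 by 2.43. On the lipid synthesis list 20 of 35 genes rose and 5 fell (15 and 8 with library totals alone), with Fasn at 2.44. The 5 that fell include the sterol exporter Abca1 (-3.77), and the sterol exporter Abcg1 fell (-3.07).

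Regulators of PI3K and mTOR signalling leaned lower, 18 of 34 against 6 higher (25 and 4 with library totals alone). Pik3ip1, an inhibitor of PI3K, was at 209.7, 185 and 167 CPM in the naive libraries and 1.44, 4.55 and 32 CPM in the tolerized libraries (log2 difference -4.62 ± 1.07 (SE), adjusted p = 0.00261), and -5.67 without tolerized replicate 3. The mTOR inhibitors Ddit4 and Sesn1 fell (-1.91 and -2.05), and so did Pik3cd, the catalytic subunit of lymphocytes (-1.95). Rheb, the mTORC1 activator, and its scaffold Rptor rose by 1.29 and 0.65. Mtor itself did not pass (-0.14, adjusted p = 0.213).

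Genes of DNA replication rose in 36 of 39 cases with none lower (median 1.83). Their promoters often hold the E2F motif TTTNNCGC, here 14 of 33 windows (42.4%) on either strand, against 9.5% of those of tested genes and 5.9% of all RefSeq promoters. It is shown in capitals for the chromatin remodeller Hells (chr19:38930898-38930965, plus strand), Uhrf1, which brings the maintenance methyltransferase to new DNA (chr17:56303251-56303318, plus strand), and Orc1, of the origin recognition complex (chr4:108579397-108579453, plus strand).
Hells: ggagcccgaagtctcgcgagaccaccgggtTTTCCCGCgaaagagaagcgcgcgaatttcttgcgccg
Uhrf1: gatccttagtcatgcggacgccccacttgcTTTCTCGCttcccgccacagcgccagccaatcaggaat
Orc1: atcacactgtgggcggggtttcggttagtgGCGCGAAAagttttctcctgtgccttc

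Hells was at 6.24, 8.26 and 9.58 CPM in the naive libraries and 75.2, 88.5 and 86.4 CPM in the tolerized libraries (log2 difference 3.24 ± 0.13 (SE), adjusted p = 4.53e-08), and Uhrf1 and Orc1 rose by 3.15 and 3.11. Mcm2, of the replicative helicase, was at 47.1, 45.2 and 48.6 CPM in the naive libraries and 358, 340.4 and 300.3 CPM in the tolerized libraries (log2 difference 2.80 ± 0.13 (SE), adjusted p = 6.97e-08). Both genes were higher in all 3 tolerized libraries. Upstream of them, Ccnd2, a G1 cyclin, was at 273, 278 and 161 CPM in the naive libraries and 2230.3, 1505 and 1229 CPM in the tolerized libraries (log2 difference 2.79 ± 0.29 (SE), adjusted p = 9.86e-06), and its kinases Cdk4 and Cdk6 rose by 1.88 and 2.01 and E2f1 by 2.34. Of 27 genes of G1 control 11 rose and 4 fell (10 and 6 with library totals alone), beside 37.4% and 35.9% of all tested genes. Ccnd3 (-0.24, adjusted p = 0.162) and Rb1 (-0.01, adjusted p = 0.937) did not pass.

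Mitotic genes were uneven among the tolerized libraries. Of 38 genes 22 rose and 1 fell, but their summed level was 660, 654 and 812 CPM in the naive and 606, 984 and 2420 CPM in the tolerized libraries. By that sum tolerized replicate 1 lay below all naive libraries and replicate 3 far above them. The mean of log2(CPM + 1) over the list was 2.36, 2.44 and 3.08 in the naive and 2.64, 3.78 and 5.28 in the tolerized libraries. By that mean tolerized replicate 1 lay within the naive range. Leaving out tolerized replicate 1 gave 34 genes higher, tolerized replicate 3 gave 15, naive replicate 1 or 2 gave 12, and naive replicate 3 gave 20. Mki67, the proliferation marker, was at 19.7, 24.3 and 51.2 CPM in the naive libraries and 2.96, 48.5 and 301 CPM in the tolerized libraries and did not pass (0.37, adjusted p = 0.787). Cdk1, the mitotic kinase, was at 1.59, 1.65 and 3.73 CPM in the naive libraries and 2.24, 9.33 and 23.9 CPM in the tolerized libraries; its call (log2 difference 1.56 ± 0.57 (SE), adjusted p = 0.0275) was lost without tolerized replicate 3 (0.86, adjusted p = 0.0938), and also without naive replicate 1, naive replicate 2 or tolerized replicate 2. Top2a, the topoisomerase of condensing chromosomes, was at 7.31, 8.35 and 18.4 CPM in the naive libraries and 16.3, 57 and 216 CPM in the tolerized libraries (log2 difference 2.39 ± 0.71 (SE), adjusted p = 0.0107), and 1.46 without tolerized replicate 3. The CHR element of cell-cycle genes, TTTGAA on either strand, was in 24 of 32 promoter windows of this list (75.0%), against 14.4% of those of tested genes and 20.2% of all RefSeq promoters. It is in capitals in the stretches of Top2a (chr11:99024190-99024242, minus strand), the spindle motor gene Kif11 (chr19:37376333-37376381, plus strand) and the condensin gene Smc2 (chr4:52439046-52439111, plus strand).
Top2a: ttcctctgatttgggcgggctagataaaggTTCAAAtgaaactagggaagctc
Kif11: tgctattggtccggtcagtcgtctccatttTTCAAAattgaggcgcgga
Smc2: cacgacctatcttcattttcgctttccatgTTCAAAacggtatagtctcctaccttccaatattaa

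**Figure D5:**
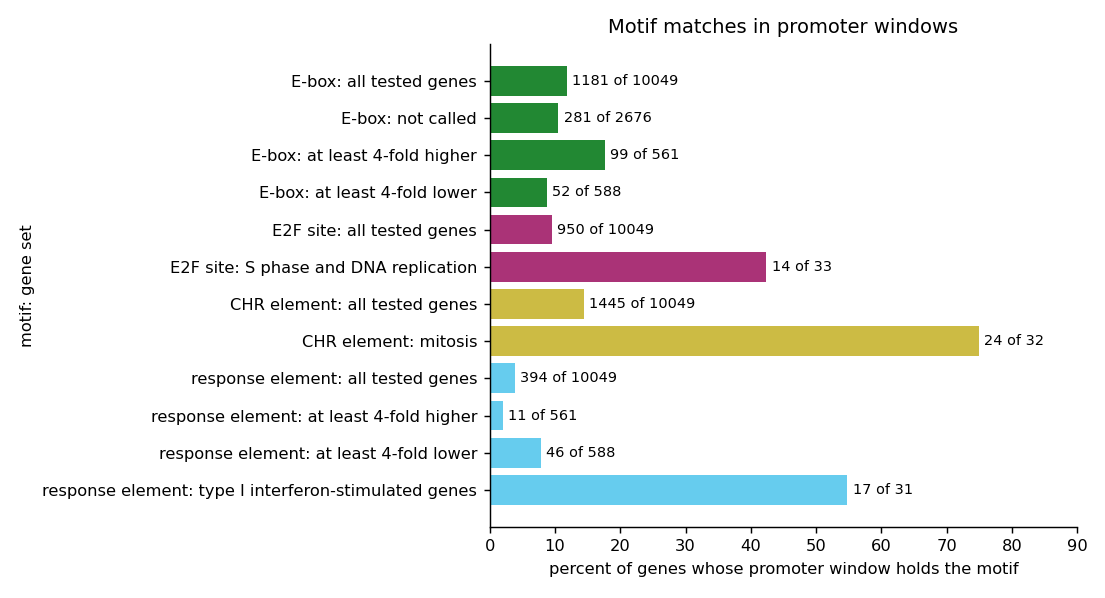
Percent of genes whose promoter window of 300 bases holds a motif (horizontal axis), by motif and gene set. The interferon response element stands at 54.8% in interferon-stimulated genes, the E2F motif at 42.4% in replication genes and the CHR element at 75.0% in mitotic genes, against 3.9%, 9.5% and 14.4% in tested genes, while the E-box differs less between sets.

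Of 36 genes of the BCL-2 and caspase families 13 rose and 12 fell (12 and 14 with library totals alone), shares near those of all tested genes (37.4% and 35.9%). Bcl2, the survival factor of resting T cells, was at 119, 103 and 80.4 CPM in the naive libraries and 25.9, 35.1 and 32.6 CPM in the tolerized libraries (log2 difference -1.65 ± 0.35 (SE), adjusted p = 0.00153), whereas Bcl2l1, which encodes BCL-XL, was at 10.1, 10.1 and 9.97 CPM in the naive libraries and 79.8, 72.5 and 59.9 CPM in the tolerized libraries (log2 difference 2.69 ± 0.23 (SE), adjusted p = 2.36e-06). The A1 gene Bcl2a1b rose by 3.10, though near-identical copies make the split between A1 genes uncertain. Among death-promoting members Bax and Bid rose by 1.66 and 1.74, and Bmf fell (-2.84). Of 30 p53 targets and damage genes 15 rose and 8 fell, but 11 and 10 with library totals alone; the checkpoint kinase Chek1 rose by 3.82 and Sesn1 and Ddb2 fell (-2.05 and -1.94). 

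RNA and chromatin regulators changed as well. Splicing and export genes rose in 34 of 39 cases, among them the nuclear import genes Kpna2 (3.75) and Ran (2.86), and the splicing regulator Mbnl1 fell (-0.77). Of 38 chromatin and DNA methylation genes 20 rose and 10 fell (17 and 15 with library totals alone). Dnmt3a, which sets new DNA methylation, rose by 2.03 and Ezh2, of the Polycomb complex, by 2.27, while Tet1, which oxidises methylated cytosine, fell (-3.08) and the deacetylase Hdac5 (-1.60). The cytoskeleton was mixed, 14 of 34 higher and 8 lower (12 and 14 with library totals alone), beside 37.4% and 35.9% of all tested genes. The tubulin gene Tuba1b was higher (1.81) and Tmsb10, which binds actin monomers, was lower (-1.71). Of the 22 tested genes beginning Tub, 6 rose, 3 fell and 13 did not pass, with a median of -0.07. 

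The size of the changes was graded across the tolerized libraries. Among genes at least 2-fold lower, tolerized replicate 3 was the highest of the 3 tolerized libraries in 1646 of 2339, and among genes at least 2-fold higher it was the lowest in 1928 of 2375. The median log2 difference from the naive mean was 1.70, 1.59 and 1.45 in replicates 1, 2 and 3 for the rising genes and -1.98, -1.72 and -1.30 for the falling genes. Over all tested genes replicate 3 was the highest of the tolerized libraries in 4964 and the lowest in 4980. The replicate nearest to the naive level in these lists was also the one with the most mitotic RNA, Gzmb and Cxcr3. A like gradient was seen in the activated libraries, without the mitotic rise. The naive-state list had a mean log2(CPM + 1) of 4.94, 5.79 and 6.34 in activated and 4.88, 5.19 and 6.03 in tolerized replicates 1, 2 and 3. For the mitosis list the means were 2.47, 2.59 and 2.5 in activated and 2.64, 3.78 and 5.28 in tolerized replicates. Any link between these patterns was not tested.

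The activated group, which had the antigen without anti-CD154, shares its naive controls with this comparison, so each level is set side by side. No gene passed between tolerized and activated (0 of 12499, 0.0%, limma, smallest adjusted p 0.957), with 531 genes at an unadjusted p under 0.05. The limma-voom fit also called none. Leaving out 1 naive or tolerized library gave 0 to 60 calls, the 60 without tolerized replicate 1. Fits without an activated library were not run. Xcl1 was at 1180.3, 708 and 556 CPM in the activated libraries, next to the tolerized values given above, and Il2ra at 343, 215 and 197 CPM. Il2 was at 9.36, 2.74 and 2.23 CPM and Ifng at 128, 64.8 and 71 CPM, each range overlapping the tolerized one. Pdcd1 was at 120.0, 77.5 and 58.8 CPM, also overlapping. Lag3 was at 210.3, 235 and 155 CPM, below all 3 tolerized libraries, with a log2 difference of tolerized minus activated of 0.65 ± 0.22 (SE) that did not pass. Il7r was at 5.76, 34.6 and 87.9 CPM and S1pr1 at 7.74, 75.6 and 201 CPM, with a log2 difference of tolerized minus activated of -1.61 ± 0.94 and -1.15 ± 1.26 (SE). Gzmb was at 54.7, 33.5 and 54.1 CPM (0.60 ± 0.61), where tolerized replicate 3 stood above all the activated libraries. A p that misses the threshold does not show that the groups are alike.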

How the data were processed

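RNA from 12 sorted T cell libraries, 3 in each of 4 groups, was sequenced on a HiSeq 2000. The deposited table holds read counts per gene, written by the authors with commas in the larger numbers and therefore recorded as an other unit. TopHat2, bedtools and DESeq, and the builds mm10 and GRCm38, are named in the submitters' processing notes without roles. Per-library totals were 29335723 to 84533097 reads, and small counts were more often even than odd (55.6 to 64.4% of values from 1 to 20).

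Counts were scaled by trimmed means of M values (30% and 5% trimmed), kept at 0.258 CPM or more in 3 libraries and 15 reads in all, and tested as log2(CPM + 1) with limma 3.58.1 (trend; R 4.3.3) over all 12 libraries without a replicate block, with Benjamini-Hochberg adjustment over 12499 genes and a two-sided threshold of 0.05. On simulated counts 4-fold changes were recovered, 2-fold changes only in part. Deviations of same-numbered tolerized and naive libraries from their group means correlated at -0.0966, -0.0455 and -0.0392. Those of differently numbered libraries ran from -0.0974 to 0.127. With 3 libraries a group these values cannot show whether same-numbered libraries were handled together. Deviations of the activated libraries were not examined in this way. Tolerized replicate 1 correlated at 0.991 with activated replicate 1 and at 0.9719 with activated replicate 3, and tolerized replicate 3 at 0.9552 and 0.98. A replicate block over all 12 libraries also called no gene between tolerized and activated.

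The comparison, the 57 gene lists (1430 genes, 1402 in the table) and the named genes were chosen with earlier results of these data known. Named were the 12 largest rises and falls with no overlap and a mean of at least 10 CPM, key genes and the 3 largest rises and falls of each list, and the genes with most spread, highest level or least change; any further gene (such as Txnip, Cd74, Foxp3 or Crtam), the genes moving between absence and presence and the promoter stretches shown were chosen after their values were seen. Some genes these rules name are not reported here. Genes were matched by identifier to RefSeq GRCm38.p6 for positions (16313 of 16353) and promoters (10049 tested genes). Alternatives were other scalings, filters and pseudocounts, limma-voom, the 6 libraries alone, replicate blocks and leaving out each naive or tolerized library in turn. No activated library was left out.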

Additional observations from a re-analysis of the deposited data

How the results depend on the processing

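Of 477 genes singled out by rule, 407 were called; 370 kept the call in all 6 fits that left out 1 library, and 340 in all 17 alternatives. Leaving out 1 library gave 4383 to 4596 genes higher and 3789 to 4549 lower. With a pseudocount of 5 the genes at least 2-fold lower numbered 1534 in place of 2339, since a larger pseudocount shrinks low genes. Calls between tolerized and activated ran from 0 to 60 when 1 naive or tolerized library was left out. Dnmt1 and Xbp1 turned from 0.29 and 0.28 to -0.02 and -0.02 with library totals alone. With a replicate block there were 4672 higher and 4497 lower over all 12 libraries, and 4376 and 4094 over the 6 compared. With 3 libraries a group the median 95% half-width was 0.34 on the log2 scale, so smaller differences were mostly not detectable, and depth limits genes near 1 CPM most.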

Other observations

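Several symbol families outside the lists moved largely one way, given as counts without a test of the family. Genes of RNA polymerase subunits (Polr) rose in 28 of 29 cases, nucleoporins (Nup) in 18 of 21 and DEAD-box helicases (Ddx) in 25 of 37. Genes beginning Klf, zinc finger factors that include keepers of quiescence, fell in 10 of 14 cases and rose in 1. The GTPases of immunity beginning Gimap, known for lymphocyte survival, fell in 5 of 8 with none higher. These stand beside 37.4% of all tested genes higher and 35.9% lower.

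The circadian clock genes were mixed, with 9 of 20 higher and 7 lower (4 and 9 with library totals alone). Arntl, the core activator, fell from 30.8 ± 1.68 to 11.8 ± 2.09 CPM (mean ± SD, n = 3), Dbp (-1.35) and Nr1d2 (-1.03), and the repressors Cry1 and Per2 rose by 0.73 and 0.95. The labels give no clock time for the naive spleens, and its part was not tested. By exon length, called lower genes had a median of 3071 bases, called higher genes 2580 and genes not called 2837.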
